A study of Homo sapiens with 16 samples.

Results

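Mitochondrial ribosomal protein genes encode the protein subunits of the ribosome that works inside mitochondria. They were followed here in HMC3, a human microglial cell line, in cells that were wild type or labelled knockout of METTL3. Members were all rows whose symbol begins with MRPL or MRPS, followed by a number and at most 1 of the letters A to C. The rule found 78 genes among 60669 rows, the same 78 in both deposited tables, and it used no measured value. The labels list 16 libraries. Smart-seq2, which amplifies RNA with a poly(A) tail, was used for 5 wild-type libraries and for 5 libraries labelled METTL3 KO. The other 6 libraries, 3 with each label, were made with a directional kit once ribosomal RNA had been removed, so they also hold RNA without a poly(A) tail. No treatment is named for any library, and all came from total RNA of the same line. Whether the knockout-labelled cells were 1 clone or a pool is not stated, nor whether libraries came from separate cultures, so p-values measure only the spread between these samples, which may be technical.

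Mitochondrial DNA encodes a small set of proteins of the respiratory chain and ATP synthase, and the mitochondrial ribosome (mitoribosome) makes them. Its ribosomal RNAs are transcribed from mitochondrial DNA, whereas every one of its proteins is encoded in the nucleus, made in the cytosol and imported. Some subunits descend from the bacterial ribosome and others were added in the mitochondrial lineage. METTL3 is the catalytic subunit of the enzyme that writes N6-methyladenosine on messenger RNA.

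The poly(A) libraries were available as 1 deposited table of a comparison, with no single-library values, and the rRNA-depleted libraries as deposited TPM, each gene's share of a library's transcripts after division by gene length. The depth recovered from the TPM steps was 266157 to 487272 reads in wild-type libraries and 512627 to 1267171 in knockout-labelled ones, and the members held 1145 to 4687 of these reads. Knockout-labelled libraries 1 and 2 did not differ beyond sampling noise (chi-square of 1.02 per degree of freedom over 10117 genes, against 1.17 to 1.54 for the other pairs) and were counted as 1 sample, which left 3 and 2 samples. METTL3 itself stood at 31.2, 31.6 and 25.4 TPM in wild type and at 39.2, 39.96 and 42.7 TPM under the knockout label. Its mRNA was therefore not lower in the libraries labelled knockout (limma adjusted p = 0.106, two-sided exact permutation p = 0.2, the smallest that 3 against 2 samples allow), although it turned to -0.37 (limma adjusted p = 0.258) after removal of each library's trend with GC content. In the authors' deposited table for the poly(A) libraries it was at 0.09 (adjusted p = 0.654). Directions below are those of the labels. Of 10 microglial markers, 7 were at 0 in all 6 rRNA-depleted libraries (P2RY12, TMEM119, CX3CR1, AIF1, ITGAM, PTPRC and SPI1), and the 10 summed to at most 6.47 TPM in any library. Of 8 fibroblast or mesenchymal markers, 5 reached 1 TPM in every library, and the 8 summed to 11190 to 13630 TPM in wild-type libraries and 3348 to 3470 TPM in knockout-labelled ones. COL1A1 carried most of that sum and fell with COL1A2 and PDGFRB, while FN1 (835 to 2191 TPM on average, limma adjusted p = 0.00125) and THY1 (127 to 264 TPM, limma adjusted p = 0.00256) rose. In the authors' deposited table COL1A1 (-0.79) and THY1 (0.58) kept these directions. There COL1A2 was higher (0.30, adjusted p = 0.0029), FN1 was lower (-0.34, adjusted p = 0.0121) and PDGFRB was at -0.05 (adjusted p = 0.886). The part of these marker differences in the values below was not tested.

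The members lie on 21 chromosomes, at most 8 of them on 1 chromosome (17). The stretch before the transcription start was compared over the 69 members with an entry in the RefSeq promoter table (GRCh38.p14; the members without an entry are MRPL2, MRPL10, MRPL13, MRPL15, MRPL21, MRPL23, MRPL35, MRPS28 and MRPS36). Each window ran from 250 bases before the start to 50 after it, and each motif was searched on both strands, with overlaps between motifs allowed. The core bound by ETS factors such as GABP, CCGGAAG, was present in 29 of the 69 windows (42.0%), against 10.7% of 27305 windows of the same length. Those 27305 belong to every gene with an entry, whether or not it was expressed in these cells. The YY1 letters AANATGGCG were present in 18 (26.1%, against 3.37%), and the NRF1 letters (GCGC, A, any base, GCGC) in 8 (11.6%, against 6.29%). The CCAAT letters were in 20 of 69, against 35.7% of all windows. One or more of the ETS, YY1 and NRF1 motifs was in 47 members (68.1%, against 18.0%). A match is a description of letters, not a bound site or a cause. The upstream 250 bases of 6 members named below are printed as examples, and all 6 hold a match. MRPL1, MRPL4, MRPL9, MRPL11, MRPL12, MRPL22, MRPL41, MRPL44 and MRPL50, also named below, have 0 matches in the same stretch and are not printed. The same holds for MRPS14, MRPS16, MRPS17, MRPS18B, MRPS24, MRPS30 and MRPS35. Capitals mark the matches to those motifs on either strand.

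MRPS34 (chr16:1773135-1773384, minus strand), which fell in both library types, with 3 ETS matches beginning 71, 29 and 19 bases before the start:
MRPS34: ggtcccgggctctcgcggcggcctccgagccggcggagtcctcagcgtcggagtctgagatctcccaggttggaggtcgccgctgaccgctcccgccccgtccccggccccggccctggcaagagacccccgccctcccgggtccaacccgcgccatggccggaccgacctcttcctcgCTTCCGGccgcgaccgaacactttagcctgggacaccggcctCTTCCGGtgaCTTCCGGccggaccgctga
MRPS26 (chr20:3045802-3046051, plus strand), which also fell in both types, with 1 ETS match 37 bases before the start:
MRPS26: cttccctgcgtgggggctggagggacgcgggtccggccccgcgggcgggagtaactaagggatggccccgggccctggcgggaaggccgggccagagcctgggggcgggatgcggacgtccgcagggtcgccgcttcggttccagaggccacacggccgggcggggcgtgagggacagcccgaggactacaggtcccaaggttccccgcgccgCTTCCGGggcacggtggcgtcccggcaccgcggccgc
MRPL30 (chr2:99180934-99181183, plus strand), which fell most in the rRNA-depleted libraries, with an ETS match at 145 and an NRF1 match at 116 bases:
MRPL30: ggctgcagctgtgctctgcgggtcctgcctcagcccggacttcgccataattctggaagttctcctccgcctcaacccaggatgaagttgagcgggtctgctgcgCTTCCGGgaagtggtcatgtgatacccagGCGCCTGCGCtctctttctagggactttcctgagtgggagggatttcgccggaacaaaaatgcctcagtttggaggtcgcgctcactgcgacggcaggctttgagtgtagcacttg
MRPL14 (chr6:44127309-44127558, minus strand), among those that fell most in the poly(A) table, with 1 NRF1 match:
MRPL14: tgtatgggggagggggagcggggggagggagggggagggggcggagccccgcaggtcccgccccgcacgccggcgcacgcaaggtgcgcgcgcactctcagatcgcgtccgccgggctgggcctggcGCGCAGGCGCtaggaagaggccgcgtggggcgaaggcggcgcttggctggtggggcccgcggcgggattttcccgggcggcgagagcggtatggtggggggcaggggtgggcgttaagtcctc
MRPL48 (chr11:73787624-73787873, plus strand), also among those, with an ETS match at 63 bases:
MRPL48: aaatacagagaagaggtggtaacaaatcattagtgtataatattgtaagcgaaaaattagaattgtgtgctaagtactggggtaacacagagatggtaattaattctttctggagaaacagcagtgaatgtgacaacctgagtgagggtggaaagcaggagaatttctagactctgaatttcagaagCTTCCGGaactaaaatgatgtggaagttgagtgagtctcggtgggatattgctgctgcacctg
MRPL36 (chr5:1799838-1800087, minus strand), which moved in opposite directions in the 2 library types, with an NRF1 match at 110 and a YY1 match at 36 bases:
MRPL36: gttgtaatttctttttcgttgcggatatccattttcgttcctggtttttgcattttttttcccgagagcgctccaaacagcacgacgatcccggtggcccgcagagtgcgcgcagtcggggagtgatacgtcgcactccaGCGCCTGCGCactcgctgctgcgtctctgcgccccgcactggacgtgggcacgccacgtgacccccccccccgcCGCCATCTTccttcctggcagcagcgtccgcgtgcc

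In the poly(A) libraries the members were lower with the knockout label, as a broad and shallow shift. The authors' deposited table called 37 of the 78 members lower at an adjusted p under 0.05 (47.4%), where 10.3% of 14009 genes were called lower. It called 0 members higher, where 9.55% of genes were, and 0 were higher at an unadjusted p under 0.05. In the authors' deposited table the log2 fold change was below 0 in 74 of 78 members, against 48.5% of all genes, and its median was -0.37 over the members and 0.02 over all genes. Called members ranged from -0.97 to -0.20 in the authors' deposited table, so none of them reached an absolute log2 change of 1. Since a call depends on depth, the count was repeated for genes with a mean of at least 50 normalized counts: 33 of 65 members (50.8%) were then lower in the authors' deposited table, against 18.7% of such genes. That table does not name its numerator, and positive values were read as higher under the knockout label. In bulk RNA, fewer cells that express a gene and less of its RNA per cell cannot be told apart.

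**Figure D1:**
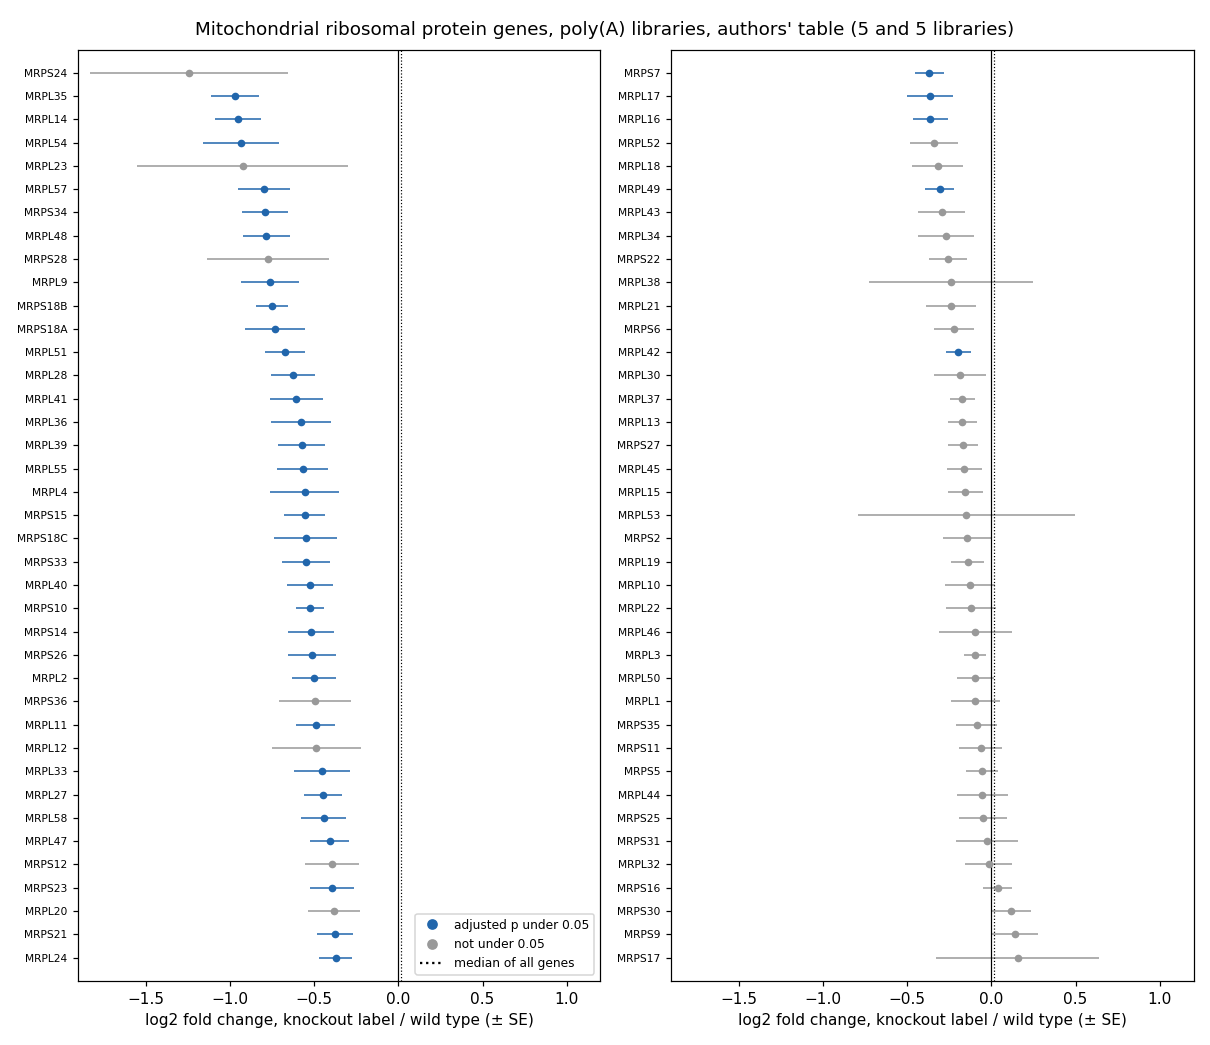
Log2 fold change of each of the 78 members in the authors' deposited poly(A) table, knockout label over wild type, with bars of 1 SE and members sorted from lowest to highest across both panels. Blue points passed an adjusted p of 0.05, and all 37 of them lie below 0; the dotted line is the median of all genes at 0.02.

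Both subunits contributed. The large subunit joins amino acids and holds the exit tunnel, and 26 of its 51 members fell (median of -0.37 in the authors' deposited table). The small subunit binds and decodes the messenger RNA, and 11 of its 26 members fell, with the same median of -0.37 in the authors' deposited table. Subunits with a bacterial counterpart (21 of 46 lower, median -0.37) and those found only in mitochondria (16 of 31 lower, median -0.31) also had similar medians in the authors' deposited table; no difference between these classes was tested. MRPS36, which is now known as a subunit of the oxoglutarate dehydrogenase complex and not of the ribosome, was counted in neither subunit and was not called.

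The members that fell most in the poly(A) libraries, among those with at least 50 normalized counts, were large-subunit proteins with 1 exception, MRPS34. MRPL35 (chromosome 2, 86199355 to 86213794), the counterpart of bacterial L35, had a log2 fold change of -0.97 (SE 0.14, adjusted p = 6.89e-10) in the authors' deposited table. MRPL14 (chromosome 6, 44113454 to 44127457), which lies at the interface with the small subunit, had -0.95 (SE 0.14, adjusted p = 2.68e-10) in the authors' deposited table. MRPL57, MRPL48 and MRPL9 had -0.80, -0.78 and -0.76 in the authors' deposited table, with adjusted p of 4.47e-06, 7.21e-07 and 0.000185. MRPS34, a small-subunit protein found only in mitochondria, had -0.79 (adjusted p = 2.24e-07) in the authors' deposited table. MRPL54 is outside the rule for named genes, since its mean was 30.6 normalized counts, and was chosen after its value was seen: -0.93 in the authors' deposited table (adjusted p = 0.000553). MRPL9 shares 33.2% of its exon bases with genes on the opposite strand, and the strand setting of the authors' counting is not given in the sources used here.

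The 4 members above 0 in the authors' deposited table were MRPS16 (0.04), MRPS30 (0.12), MRPS9 (0.14) and MRPS17 (0.16), named after their values were seen. None of them passed the threshold, with adjusted p of 0.547 to 0.874 in the authors' deposited table. The lowest value of all, -1.24 for MRPS24, also missed it (adjusted p = 0.128 in the authors' deposited table), and rested on a mean of 4.04 normalized counts. MRPS17 rested on a mean of 5.77 and shares 27% of its exon bases with other genes on its own strand. MRPL12, whose protein forms the L7/L12 stalk that recruits translation factors, had -0.49 without passing (adjusted p = 0.2 in the authors' deposited table, from 31.7 normalized counts). All 3 paralogs of bacterial S18 fell, with -0.73 for MRPS18A, which is built into the large subunit, -0.75 for MRPS18B and -0.55 for MRPS18C in the authors' deposited table.

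The rRNA-depleted libraries gave a different picture, in which the members spread in both directions, at shares near those of all genes. Limma on log2(TPM + 1) called 18 members higher (23.1%) and 7 lower (9.0%) with the knockout label, where 22.9% of 14789 genes were called higher and 12.4% lower; 53 members were not called. These shares are near the background and are no result about the members. The median log2 change was 0.34 over the members and 0.41 over all genes, and it was 0.33 over 77 members when 4 members with at most 3 reads in every wild-type library were set against 3 reads and the 1 at that floor under both labels was left out. With median ratio scaling, which lowers the median of all genes to 0.11, the split turned to 11 higher and 17 lower (39.3% of calls higher in place of 72%), against 16.0% and 16.9% of genes, and the median of the members was -0.01. Counts also depended on single samples: without knockout-labelled library 3 there were 1 higher and 3 lower (6.79% and 4.46% of all genes), without knockout-labelled libraries 1 and 2 there were 2 and 5 (6.36% and 5.4% of all genes), and without wild-type library 1 there were 15 and 4 (20.1% and 9.24% of all genes). Calls over all genes thus dropped as well. The 3 libraries of one label lay apart from the 3 of the other in 58.4% of genes: 37 members were higher without overlap (47.4%, where 38.4% of genes were) and 17 lower (21.8%, where 19.9% of genes were).

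Levels in wild type ran from 1.67 TPM to 539 TPM with a median of 40.2 over the members, with MRPS24, MRPL1 and MRPL50 lowest. MRPS24 shares 23.2% of its exon bases with URGCP-MRPS24 on its own strand. Summed over the members, wild-type libraries held 5648, 5415 and 6162 TPM and knockout-labelled libraries 5433, 5465 and 5050 TPM. The summed groups overlapped. The large-subunit sum overlapped too, with 3306 to 3902 TPM in wild type and 3405 to 3717 TPM in knockout-labelled libraries. The small-subunit sum did not overlap, with 2095 to 2249 TPM against 1610 to 1705 TPM. That lower sum included the members highest in wild type, MRPS26 and MRPS34, and the large-subunit sum included the next, MRPL30. All 3 fell. The median over the small-subunit members went the other way, with 29.55 to 33.41 TPM in wild type and 47.97 to 55.21 TPM in knockout-labelled libraries. The median change over all genes was also upward, at 0.41 on the log2 scale.

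Of the 20 members named here with a limma call, MRPL30, MRPS26, MRPS34 and MRPL11 kept it under all 16 alternatives. MRPL30 (chromosome 2, 99181079 to 99197626), the counterpart of bacterial L30, was at 310.4, 371.4 and 371.8 TPM in wild type and at 40.5, 69.9 and 33.4 TPM in knockout-labelled ones. No library of one label reached the other, as the rule for the members that fell most required. The log2 change was -3.00 (SE 0.23, limma adjusted p = 0.00174). In the authors' deposited table MRPL30 was at -0.19 and did not pass (adjusted p = 0.4485). MRPS26 (chromosome 20, 3045945 to 3048254), found only in the mitochondrial small subunit, was at 515, 487 and 616 TPM against 98.1, 156 and 132 TPM. It was the highest member in wild type and fell by 2.05 on the log2 scale (SE 0.13, limma adjusted p = 0.00124). MRPS34 (chromosome 16, 1771890 to 1773155) was at 458, 509 and 497 TPM against 180.3, 210 and 206 TPM, which is -1.28 on the log2 scale (SE 0.10, limma adjusted p = 0.00168). MRPL11 (chromosome 11, 66435075 to 66466738), at the base of the stalk, was at 30.7, 32.6 and 35.4 TPM against 85.8, 102.5 and 99.2 TPM. It rose by 1.53 (SE 0.14, limma adjusted p = 0.00248). MRPL30 shares 19.5% of its exon bases with other genes on its own strand, and how the authors counted such bases is not given in the sources used here.

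**Figure D2:**
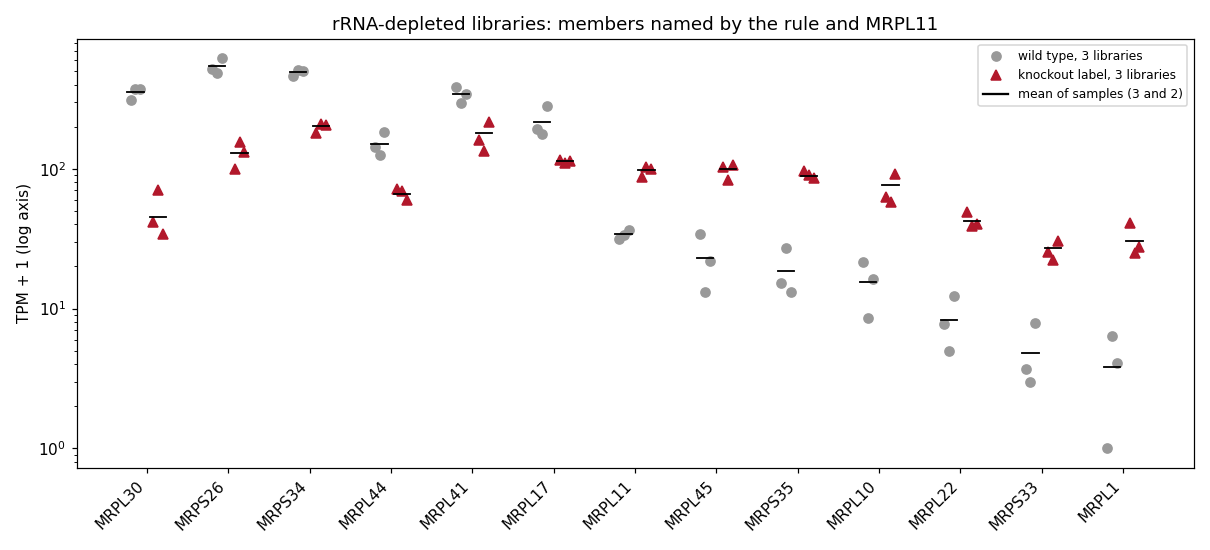
TPM + 1 on a log axis in each rRNA-depleted library (3 wild type, grey; 3 knockout label, red; bars are means of 3 and 2 samples) for the 12 members that fell or rose most by the rule and for MRPL11. The rule asked for labels that do not overlap in the 12, and those of MRPL11 do not overlap either. MRPL30 drops from 310.4 to 371.8 TPM in wild type to 33.4 to 69.9 TPM.

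The other members that fell were large-subunit proteins, by smaller amounts. MRPL44, a protein with a ribonuclease III fold, was at 142, 124 and 181.5 TPM against 70.95, 68.9 and 59.1 TPM, a log2 change of -1.18 (limma adjusted p = 0.00978). It was at -0.05 in the authors' deposited table and did not pass there (adjusted p = 0.859). MRPL41 was at 382, 295 and 342 TPM against 159, 132 and 215 TPM, a log2 change of -0.93 (limma adjusted p = 0.0224). MRPL17, the counterpart of bacterial L17, was at 193, 177 and 279 TPM against 115, 109.5 and 113.5 TPM, a log2 change of -0.90 (limma adjusted p = 0.0268). None of the 3 overlapped between labels, which the rule for naming them required. MRPL41 turned to 0.14 (limma adjusted p = 0.624) once the trend with GC content was removed from each library, and at 71.95% it has the highest GC of these.

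The members that rose most were low in wild type and rested on few reads there. MRPL1, which forms the L1 stalk, was at 0, 5.33 and 3.08 TPM against 39.7, 23.96 and 26.6 TPM, and its wild-type libraries held at most 1 read. Taken against 3 reads, it was at least 2.42-fold higher (limma adjusted p = 0.0342 for its fitted change). MRPS33 was at 2.69, 1.97 and 6.83 TPM against 24.2, 21.3 and 29.5 TPM, or 2.61 on the log2 scale (SE 0.54, limma adjusted p = 0.0185). MRPL22, which lines the exit tunnel, was at 6.72, 3.93 and 11.4 TPM against 47.7, 37.96 and 39.2 TPM, or 2.43 on the log2 scale (SE 0.45, limma adjusted p = 0.0135). MRPL10, the stalk protein that carries MRPL12, was at 20.5, 7.49 and 15.2 TPM against 61.9, 56.5 and 91.1 TPM, or 2.38 on the log2 scale (SE 0.46, limma adjusted p = 0.0149). MRPS35 rose by 2.34 (limma adjusted p = 0.00735) from 12.1 to 26.2 TPM in wild type to 84.8 to 94.9 TPM. MRPL45, which helps to hold the mitoribosome at the inner membrane, rose by 2.22 (limma adjusted p = 0.014) from 12.1 to 33.2 TPM to 81.9 to 106 TPM. All 6 had higher values in each knockout-labelled library than in any wild-type library, which the rule for naming them required. The knockout-labelled libraries were also the deeper ones. With reads thinned to the shallowest library, limma called 10 members higher and 8 lower (15.5% and 12% of all genes), and MRPL1 and MRPL10 lost their calls. With the GC trend removed, MRPL1, MRPL22 and MRPS33 lost theirs (limma adjusted p = 0.112, 0.0507 and 0.0669), and with median ratio scaling MRPL1 did (limma adjusted p = 0.0532). In the authors' deposited table none of these members rose. MRPL1, MRPL10, MRPL22, MRPL45 and MRPS35 were at -0.16 to -0.09 there without passing (adjusted p = 0.313 to 0.725), and MRPS33 was lower (-0.55, adjusted p = 0.00169).

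The other 16 named members with a limma call lost it without either knockout-labelled sample, when the lone sample left is assumed to vary like the others. Without wild-type library 1, MRPL4, MRPL17, MRPL41, MRPL51, MRPS10, MRPS14 and MRPS18C lost theirs. Without wild-type library 2, MRPS10 did, and without wild-type library 3, MRPL1, MRPL41, MRPL51 and MRPS14 did. Reads were few for some members: 5 held 3 reads or fewer in every wild-type library, and 1 of them, MRPS24, in all 6 libraries. In simulated libraries of these depths, the same limma step recovered 67 of 191 genes changed by 2 on the log2 scale (35.1%), and 64 of 129 with at least 10 reads on average. A member that was not called may thus still have changed. The simulation held sampling noise only and few changed genes, whereas 35.3% of genes were called in the data. Its rates therefore do not carry over to these libraries.

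Setting the library types side by side, 13 members passed both thresholds (10.6% of 12498 genes did). MRPS26, MRPS34, MRPL17 and MRPL41 were lower in both, 4 of 78 where 1.96% of genes were. In the authors' deposited table their log2 fold changes were -0.51, -0.79, -0.37 and -0.61, each smaller in size than in the rRNA-depleted libraries. The other 9 were higher in the rRNA-depleted libraries and lower in the poly(A) libraries, a combination held by 3.03% of genes: MRPL4, MRPL11, MRPL36, MRPL47, MRPL51, MRPS10, MRPS14, MRPS18C and MRPS33. Both counts draw on members lower in the poly(A) table, which were 47.4% of members against 10.3% of genes. They are therefore no further result about the members. Of these 9, 6 lost the limma call with the GC trend removed (MRPL47, MRPL51, MRPS10, MRPS14, MRPS18C and MRPS33). With median ratio scaling 4 lost it (MRPL4, MRPL51, MRPS10 and MRPS18C). With reads thinned to the shallowest library 4 lost it as well (MRPL36, MRPL51, MRPS10 and MRPS14). A further 24 passed only in the poly(A) table, 12 only in the rRNA-depleted libraries and 29 in neither. Across the 78 genes, which are not independent, the Spearman correlation of the changes in the 2 library types was 0.04, against 0.19 over 12498 genes. Wild type and knockout label were compared in different libraries in the 2 types, made by different protocols at different depths, and the difference between types was not tested.

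MRPL36, the counterpart of bacterial L36, shows the opposite directions, but it lost its limma call with thinned reads and held 5, 2 and 5 reads in wild type. It was at 25.4, 14.9 and 21.5 TPM in wild-type and 62.5, 64.8 and 92.7 TPM in knockout-labelled rRNA-depleted libraries (log2 change 1.88, limma adjusted p = 0.00893), while the authors' deposited table had -0.58 (adjusted p = 0.00844). MRPL47 rose by 1.78 (limma adjusted p = 0.00645) from 22.7 to 36.2 TPM to 89.6 to 122 TPM, and had -0.41 in the authors' deposited table. With the GC trend removed MRPL47 was at 0.68 (limma adjusted p = 0.0533). MRPS14 was at 4.62 to 7.98 TPM, 2 reads in each wild-type library, against 17.4 to 29.6 TPM, at least 2.54-fold higher when set against 3 reads, and had -0.52 in the authors' deposited table. MRPS18C rose by 1.87 (limma adjusted p = 0.0291) and MRPS10 by 1.17 (limma adjusted p = 0.0381), with -0.55 and -0.52 in the authors' deposited table. With the GC trend removed they were at 0.82 and 0.26 (limma adjusted p = 0.202 and 0.544), and with median ratio scaling at 1.55 and 0.82 (limma adjusted p = 0.05 and 0.093). MRPL4 and MRPL51 rose least, by 0.62 and 0.55 (limma adjusted p = 0.0252 and 0.0424), and with median ratio scaling they were at 0.27 and 0.20 without passing (limma adjusted p = 0.18 and 0.387). MRPL4, MRPL51 and MRPS18C share 21.4%, 31.3% and 40.2% of their exon bases with genes on the opposite strand.

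The members that fell most in the poly(A) table were not called in the rRNA-depleted libraries, apart from MRPS34. MRPL35 was at 0, 5.41 and 9.38 TPM in wild-type and 42.9, 28.6 and 27.0 TPM in knockout-labelled libraries, without overlap, and missed the threshold (limma adjusted p = 0.0824). MRPL14 was at 88.6, 118.7 and 112.4 TPM against 122.3, 168.5 and 121.2 TPM (limma adjusted p = 0.205). MRPL9, MRPL48 and MRPL57 overlapped between labels, with limma adjusted p of 0.575, 0.5002 and 0.316. Among the S18 paralogs, MRPS18A (1.12, limma adjusted p = 0.132) and MRPS18B (-0.45, limma adjusted p = 0.165) were not called, and MRPS18A shares 47.0% of its exon bases with RSPH9 on the opposite strand. MRPL12 was at 48.2, 40.3 and 52.4 TPM against 65.2, 71.9 and 43.97 TPM (limma adjusted p = 0.5), and it shares 68.2% of its exon bases with another gene model on its own strand.

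**Figure D3:**
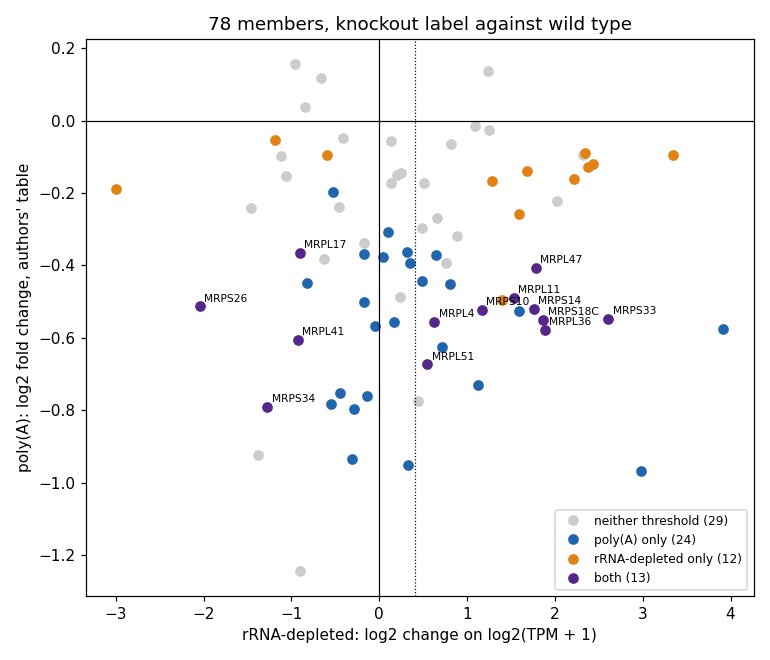
Each of the 78 members by its log2 change in the rRNA-depleted libraries (x axis, log2(TPM + 1) scale, dotted line at the median of all genes, 0.41) and its log2 fold change in the authors' deposited poly(A) table (y axis). The 13 labelled members passed both thresholds, 4 on the left and 9 on the right, all below 0 on the y axis.

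What else the members share was read from GENCODE 29. Their exons covered a median of 2539 bases, against 4439 for all genes tested, with a GC content of 47.7% against 48.5%. Change and GC content ran together in both library types. In the rRNA-depleted libraries Spearman's rho was -0.34 over the members and -0.37 over all genes, and in the authors' deposited table it was -0.38 and -0.17. Members with GC under 45% had a median log2 change of 1.27 in the rRNA-depleted libraries (1.03 over all such genes). Members with GC of 45% to 55% had 0.11 (0.39 over all such genes), and those with GC of at least 55% had 0.24 (-0.17 over all such genes). In the middle class the members thus lay below all genes, and in the outer classes above. With the GC trend removed, 7 members were higher and 16 lower by limma, against 11.2% and 15.2% of genes.

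In the poly(A) table the members were below other genes within each GC class. In the authors' deposited table the median log2 fold change was -0.21 for members with GC under 45%, where all such genes had 0.11. They were -0.36 in the authors' deposited table for GC of 45% to 55%, against -0.01. For GC of at least 55% they were -0.54 in the authors' deposited table, against -0.13. Shorter members were lower, with a rho of 0.34 between length and the change given in the authors' deposited table (0.18 over all genes). After the trends with GC and length over all genes were removed from the authors' deposited table, 71 of the 74 members below 0 were still below it, and the members' median relative to all genes was -0.25 in place of -0.39.

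**Figure D4:**
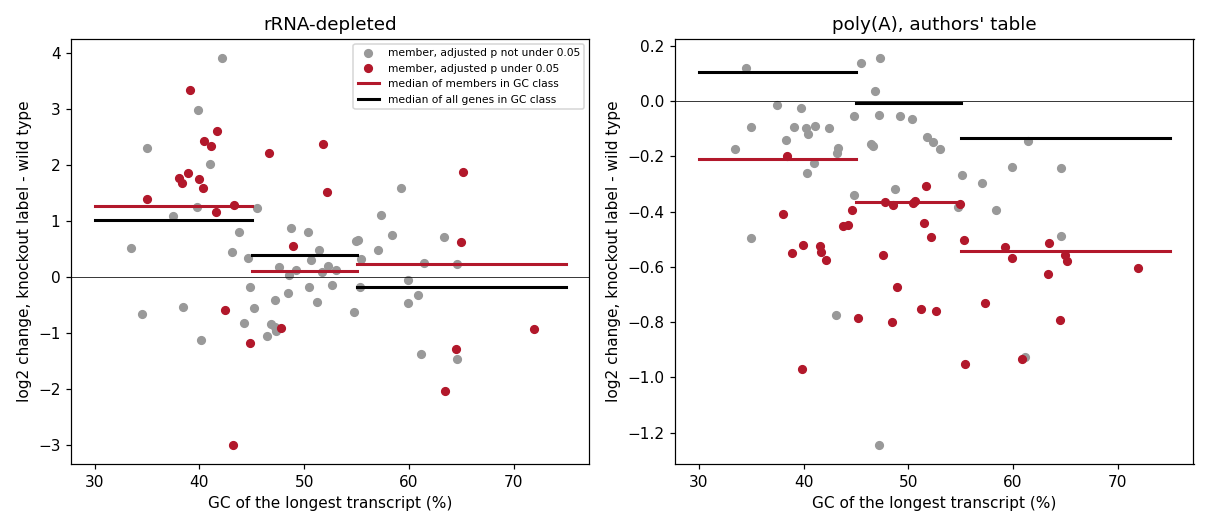
Log2 change of each member against the GC content of its longest transcript, in the rRNA-depleted libraries (left, log2(TPM + 1) scale) and in the authors' deposited poly(A) table (right). Bars are medians within 3 GC classes, red for members and black for all genes; on the right the red bars (-0.21, -0.36 and -0.54) lie below the black ones (0.11, -0.01 and -0.13).

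Letters of the consensus around methylated adenosines, GGACT, were counted on the sense strand of the longest coding transcript, with no measurement of methylation. Members had a median of 0.96 matches per kilobase, against 0.92 over 11971 genes. Members lower in the authors' deposited table (0.96) and those not called (0.95) had similar densities, and 16 members had no match. Of members with a promoter entry, the ETS letters were in 18 of the 35 that were lower in the authors' deposited table and in 11 of the 34 that were not called, the YY1 letters in 7 and 11, and the NRF1 letters in 5 and 3. These differences were not tested.

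A further limit is shared sequence. Of the 78 members, 26 share at least 10% of their exon bases with another gene. Among the other 52, 27 were lower in the authors' deposited table (10.3% of all genes), and limma called 14 higher and 5 lower in the rRNA-depleted libraries (22.9% and 12.4% of all genes). Processed copies of 36 members have 79 rows of their own, and how the authors assigned reads that match a gene and its copy is not given in the sources used here.

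The rest of mitochondrial translation was described from lists of genes outside the rule, to be read against the shares of all genes called: 10.3% lower and 9.55% higher in the authors' deposited table, and 12.4% lower and 22.9% higher by limma. Of 5 mitoribosome subunits under other names, 3 were lower and 1 higher in the authors' deposited table: AURKAIP1 (-0.57), GADD45GIP1 (-0.41) and DAP3 (-0.36) fell. PTCD3, a small-subunit protein that binds RNA, was the exception, at 0.42 in the authors' deposited table (adjusted p = 0.000258). It also rose in the rRNA-depleted libraries, by 1.48 (limma adjusted p = 0.0204), from 13.9, 20.4 and 10.6 TPM to 38.9, 44.5 and 42.6 TPM. This last call was lost without wild-type library 1, without either knockout-labelled sample, with median ratio scaling (limma adjusted p = 0.0507) and with the GC trend removed (0.65, limma adjusted p = 0.227). Of 25 assembly factors, 3 were lower and 1 higher in the authors' deposited table, and limma called 3 higher and 3 lower. TRUB2, a pseudouridine synthase, fell in both types, with a log2 change of -0.79 in the rRNA-depleted libraries (limma adjusted p = 0.0162) and -0.44 in the authors' deposited table. Its limma call was lost without knockout-labelled libraries 1 and 2.

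Of 14 translation factors, 2 were lower and 1 higher in the authors' deposited table, and limma called 3 higher and 1 lower. TUFM, the elongation factor that delivers charged transfer RNAs, fell in both, with -0.60 in the rRNA-depleted libraries (limma adjusted p = 0.028) and -0.50 in the authors' deposited table (adjusted p = 1.2e-11). Of 17 mitochondrial tRNA synthetases, 3 were lower and 2 higher in the authors' deposited table, and limma called 4 higher and 1 lower. NARS2 fell in both, with -1.67 in the rRNA-depleted libraries (limma adjusted p = 0.00328) and -0.42 in the authors' deposited table. HARS2 rose in both, by 0.87 in the rRNA-depleted libraries (limma adjusted p = 0.0129) and by 0.44 in the authors' deposited table. The limma calls of TUFM and HARS2 were lost without knockout-labelled library 3, and that of TUFM also without knockout-labelled libraries 1 and 2 or without wild-type library 1. HARS2 was also not called with median ratio scaling (0.52, limma adjusted p = 0.0632) or once the GC trend was removed (0.43, limma adjusted p = 0.127). The counts of these last 3 lists are small and no result about the lists was drawn from them.

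The RNA core of the mitoribosome moved in opposite directions in the 2 library types. MT-RNR1, the small-subunit RNA, was at 5502, 4664 and 6420 TPM in wild-type and 253, 365 and 305 TPM in knockout-labelled rRNA-depleted libraries, or -4.16 on the log2 scale (SE 0.16, limma adjusted p = 0.000689). It had 0.72 in the authors' deposited table (adjusted p = 1.97e-07). MT-RNR2 fell by 4.30 in the rRNA-depleted libraries (SE 0.17, limma adjusted p = 0.000689) and had 0.65 in the authors' deposited table. Ribosomal RNA was depleted from the first kind of library and poly(A) RNA selected in the second, so neither level is that of the whole RNA, and the part of either step was not tested.

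Of the 13 proteins that the mitoribosome makes, limma called 11 messenger RNAs higher and 1 lower in the rRNA-depleted libraries, with a median log2 change of 2.70, and the authors' deposited table had 6 higher and 3 lower. MT-CO1 was at 712, 597 and 578.5 TPM against 6471, 6837 and 6822 TPM, or 3.43 on the log2 scale (SE 0.13, limma adjusted p = 0.000689), and at 0.52 in the authors' deposited table. MT-ND6, encoded on the other strand of mitochondrial DNA than the rest, fell by 1.62 (limma adjusted p = 0.00674), from 7663, 8535 and 5759 TPM to 2024, 2019 and 2743 TPM, and had 0.44 in the authors' deposited table. MT-CO3 rose by 3.25 in the rRNA-depleted libraries and had -0.62 in the authors' deposited table, and MT-ND3 rose by 1.59 and had -0.84 in the authors' deposited table, but MT-ND3 was at 0.62 (limma adjusted p = 0.231) with the GC trend removed. MT-ND1, MT-ND2, MT-ND4 and MT-ND5 rose in both, by 1.85 to 3.29 in the rRNA-depleted libraries and by 0.49 to 0.67 in the authors' deposited table. Without knockout-labelled library 3, MT-ND3, MT-ND5 and MT-ND6 lost their limma calls, and without knockout-labelled libraries 1 and 2, MT-ND3 and MT-ND6 did.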

How the data were processed

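RNA of HMC3 cells was measured in 10 poly(A) and 6 rRNA-depleted libraries, assigned to groups from their titles. Trimmomatic, STAR, DESeq2 and hg38 are named in the submitters' processing notes, without a role or version. The poly(A) data are 1 comparison that the authors deposited. Per the file headers it gives each gene's mean normalized count (a pooled signal), its log2 fold change and SE, its Wald score, and its p-value before and after adjustment. It holds no counts, so the count test foreseen was not run, and its values are described without SD or n. Positive values were read as higher in knockout, since the file carries the knockout's name. Of 177 genes changed by 1 or more in size on the log2 scale past both thresholds, 91.5% then had the same sign in both library types. Without a limit on size, 1327 genes passed both thresholds. Among them 245 were lower in both types, and 379 were higher in the rRNA-depleted libraries and lower in the poly(A) table. No called member reached a change of 1 in that table, so the sign was not checked on the members. The rRNA-depleted data are TPM, as deposited by the authors.

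Reads were recovered from TPM and GENCODE 29 exon lengths: 90.9% of 91124 values above 0 were whole within 0.02 reads. A limit of 3 reads was used as the floor, and covers counting error only. The test was limma 3.58.1 (R 4.3.3; lmFit, then eBayes with trend) on log2(TPM + 1), which understates changes of low genes, keeping genes that reached 1 TPM in at least 3 libraries, with Benjamini-Hochberg adjustment over all genes at 0.05. Same-numbered libraries of the 2 labels did not deviate together (correlations of 0.02, -0.02 and 0.01), so no replicate block was used. On simulated reads, where 191 genes had been changed, limma called 14 unchanged genes, 0 of them among the 8859 genes with at least 10 reads on average, and 1 called member, MRPL1, is below that mean. The simulated reads held sampling noise only, and most library pairs varied more than that, so false calls in the data may be more frequent. Other steps used Python 3.11.15, pandas 2.3.3, scipy 1.17.1 and matplotlib 3.10.9.

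Named with values were METTL3, in each library type the 6 members that rose and the 6 that fell most (past 0.05, with mean TPM of 5 or more and labels that do not overlap, or with 50 or more mean normalized counts), members past both thresholds, the 3 highest and 3 lowest in wild type, the S18 paralogs, MRPL12 and list genes past both thresholds. The members and the lists were chosen with earlier results of these data known. Alternatives changed the pseudocount, filter, scaling, threshold, model and libraries used.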

Additional observations from a re-analysis of the deposited data

How the results depend on the processing

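The poly(A) counts came from the authors' deposited table: 37 members lower at 0.05 became 31 at 0.01, and 0 where a log2 change of 1 in size was also asked for; the median relative to all genes was -0.39, -0.37 for genes with at least 50 normalized counts and -0.25 with GC and length trends removed. In the rRNA-depleted libraries the 18 members called higher by limma became 11 with median ratio scaling, 7 with the GC trend removed, 32 with the 6 libraries as separate samples, 10 with thinned reads and 5 at 0.01; leaving out 1 sample at a time gave 1 to 18. The 7 called lower became 17, 16, 13, 8 and 4 in that order, 20 with limma voom on recovered reads, and 3 to 10 with 1 sample left out. The members' median relative to all genes, -0.08, was 0.036 with a pseudocount of 5, -0.01 with the GC trend removed, 0.063 with voom, -0.24 with thinned reads, and -0.065 to 0.042 with 1 sample left out (0.01 without wild-type library 2). METTL3 went from 0.48 to -0.37 with the GC trend removed (limma adjusted p = 0.258) and to -0.022 with thinned reads (limma adjusted p = 0.952); with 6 separate libraries it passed, at 0.46 (limma adjusted p = 0.0486). MRPL41 went from -0.93 to 0.14 with the GC trend removed. The cause of these changes was not tested. The replicate block, with 6 libraries in the fit, gave 27 members higher and 10 lower; the replicate numbers showed no pairing. Alternatives that need poly(A) counts (DESeq2, left-out replicates, a block) were not run. Excluding members under 10 reads (17 and 7) or with shared exon bases (14 and 5) was chosen after seeing the data, as was the removal of GC and length trends from the authors' deposited table. In the rRNA-depleted libraries 10 members had under 10 reads on average. For separate libraries, voom, the block, the threshold of 0.01 and wild-type library 2 or 3 left out, no share over all genes is given. Member counts under those settings show only how the calls depend on processing, and are no result about the members.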

Other observations

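Related gene groups were listed after the data had been seen, and are given as values. The 82 cytosolic ribosomal protein genes with an adjusted p in the authors' deposited table held 44 lower and 3 higher, with a median log2 fold change of -0.36, close to the -0.37 of the mitochondrial ribosomal protein genes. The 74 nuclear genes for subunits of the respiratory chain and ATP synthase held 42 lower (median -0.40) in the authors' deposited table. In the rRNA-depleted libraries these groups differed from the mitochondrial ribosomal protein genes in their counts. Limma called 58 of 82 cytosolic ribosomal protein genes higher and 7 lower (median log2 change 1.11), and 34 of 75 respiratory chain genes higher and 9 lower (median 1.10), against 18 and 7 of 78 (median 0.34). With median ratio scaling the counts were 46 and 11, 29 and 15, and 11 and 17. Of all genes, 10.3% were lower and 9.55% higher in the authors' deposited table. Limma called 22.9% of all genes higher and 12.4% lower, and 16.0% and 16.9% with median ratio scaling. Without that scaling the mitochondrial ribosomal protein genes, at 23.1% and 9.0%, were near the shares of all genes. These differences between groups were not tested.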
